A study of Schizosaccharomyces pombe with 4 samples.

Results

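Transcripts of 5 enzyme genes and 1 non-coding RNA were followed in the fission yeast Schizosaccharomyces pombe, 6 of the 7092 genes in the files. They were chosen by gene identifier: fba1 (SPBC19C2.07), pho8 (SPBC14F5.13c), leu3 (SPBC3E7.16c), adh8 (SPBC1773.06c), fmd2 (SPBC1198.01) and SPNCRNA.1320, which lies antisense to fmd2. The question was whether genes for zinc-using enzymes differ without Loz1 or are spared. Total RNA was sequenced from 2 libraries labelled loz1 delta and 2 labelled wild type. Per the labels, both strains grew to an OD600 of about 6.0 in EMM, a defined minimal medium, that was low in zinc and then given 100 mM zinc. That unit is the labels' own and was not checked. The labels do not say which part of loz1 was removed, which other alleles the strains carried or whether cultures were separate, so the p-values measure a spread that may be technical.

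Zinc sits in the active site of many metabolic enzymes, where it activates water or holds a substrate. Loz1 is a zinc finger protein that represses a set of genes when zinc is plentiful. In fission yeast, cells short of zinc are known to make less of the abundant zinc enzyme Adh1 and more of Adh4, another alcohol dehydrogenase. Class II aldolases such as Fba1, alkaline phosphatases, isopropylmalate synthases and the medium-chain alcohol and formaldehyde dehydrogenases are known as zinc-binding enzymes.

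Sequencing depth, as estimated from the width of the authors' bounds, lay between 1.76e+07 and 2.00e+07 fragments per library. FPKM scales fragments by the length of a transcript and the size of a library. For loz1 itself it was 56.4 and 56.0 with the deletion label, against 6.87 and 5.81 with the wild-type label, so the gene named as deleted had the higher value. That level goes against a removal of the whole transcript, and which part of loz1 was removed is not given. Every direction below is for the libraries as labelled. The zinc importer gene zrt1, known to be repressed by Loz1, was at 977 and 964 against 17.8 and 31.0 FPKM. The groups also differed in the mating-type gene mat1-Mc, at 0 and 0.137 FPKM against 159 and 257 FPKM, and the part of mating type in the results below cannot be told apart from that of loz1. The wild-type pair differed by a median of 0.24 on the log2(FPKM + 1) scale, against 0.09 for the labelled deletion pair.

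Of the 6 transcripts, pho8 and leu3 rose in the labelled deletion libraries, SPNCRNA.1320 fell, and fba1, adh8 and fmd2 did not pass the test. The values of SPNCRNA.1320 and fmd2 rest on how reads of the bases they share were divided. All 6 passed the filter on low values, a mean of at least 1 FPKM. Groups did not overlap for 4 of the 6 (pho8, leu3, adh8 and SPNCRNA.1320), against 66.3% of all genes tested. The test was a linear model of log2(FPKM + 1) over 6315 genes, with a gene called at an adjusted p under 0.05. Over all genes tested 16.3% were called, 11.9% as higher and 4.37% as lower, so calls of this kind were common in these libraries. The members were chosen with earlier results known, and their count of 3 calls is a description. Each difference is of log2(FPKM + 1), labelled deletion minus wild type. The added 1 makes the change of low transcripts look smaller than it is.

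**Figure D1:**
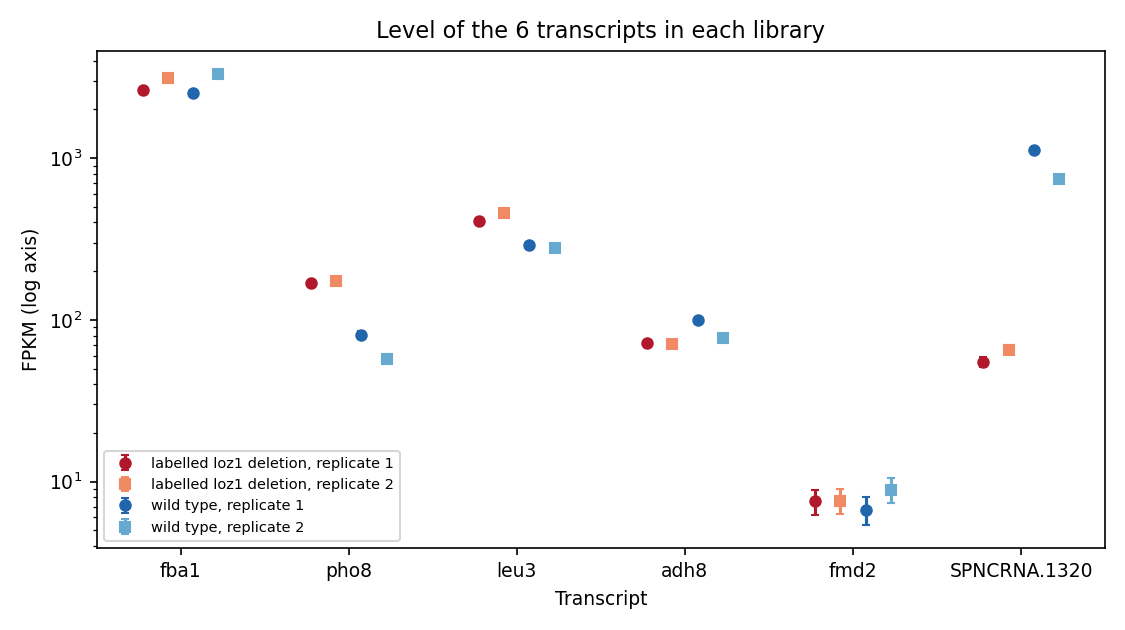
FPKM on a log axis of the 6 transcripts in each of the 4 libraries, with bars for the bounds that the authors deposited. SPNCRNA.1320 lies at 55.2 and 65.4 FPKM in the labelled deletion pair against 1124 and 747 FPKM in the wild-type pair, while the 4 values of fmd2 lie between 6.70 and 8.93 FPKM. Reads of the bases that fmd2 and SPNCRNA.1320 share cannot be told apart.

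The glycolytic gene fba1 encodes fructose-bisphosphate aldolase, which splits fructose bisphosphate into triose phosphates. It lies on chromosome II at 1688336 to 1689599 (plus strand, 1 exon, coordinates of the files). For fba1 the FPKM was 2631 and 3121 in the labelled deletion pair, against 2522 and 3315 in the wild-type pair. The groups overlapped, with both the highest and the lowest value in wild type. The difference was -0.01 ± 0.22 (SE, adjusted p = 0.97), with a 95% confidence interval from -0.57 to 0.54. Its direction changed with the library left out (from -0.21 to 0.18) and turned to 0.33 with quantile normalization. No other transcript overlaps it, and 45911 to 64553 fragments lay behind each value, so counting error was small beside the spread between libraries. By mean level it ranked at place 64 among 5106 protein-coding genes in wild type and at place 45 in the labelled deletion pair.

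Alkaline phosphatase, which removes phosphate groups at high pH, is encoded by pho8 on chromosome II at 4182551 to 4184659 (minus strand, 2 exons). For pho8 the FPKM was 168 and 174 in the labelled deletion pair, against 80.9 and 57.6 in the wild-type pair. Both labelled deletion values were above both wild-type values, as was so for 44.7% of all genes tested. The rise was 1.31 ± 0.18 (SE, adjusted p = 0.0143), a ratio of means of 2.47. With labelled deletion replicate 1 or 2 left out, the rise was 1.34 or 1.29 and was no longer called (adjusted p = 0.109 and 0.124). It was also lost with no filter on low genes (adjusted p = 0.0673). The rise went with a move from place 1567 to place 774 among protein-coding genes.

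The transcripts next to pho8 on the same strand did not pass the test. Its lower end shares 92 nt with cbh2, and its upper end shares 61 nt with SPBC3F6.01c. At cbh2 the levels were 21.1 and 18.8 against 16.2 and 17.0 FPKM, a difference of 0.25 ± 0.13 (adjusted p = 0.25). At SPBC3F6.01c they were 45.7 and 44.2 against 34.8 and 30.4 FPKM, a difference of 0.45 ± 0.12 (adjusted p = 0.0614). Cufflinks lists each transcript with its share of the signal of its locus. That share for pho8 was 68.4% and 70.3% in the labelled deletion libraries and 57.7% and 51.4% in wild type.

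The gene leu3 encodes 2-isopropylmalate synthase, the enzyme that commits carbon to leucine synthesis. It lies on chromosome II at 2688416 to 2690687 (minus strand, 1 exon). For leu3 the FPKM was 410 and 460 in the labelled deletion pair, against 289 and 280 in the wild-type pair. Both labelled deletion values were the higher ones. The rise was 0.61 ± 0.11 (SE, adjusted p = 0.0266), a ratio of means of 1.53, and the median of all genes tested itself lay at 0.13. After median-ratio rescaling of the libraries the difference was 0.47 and was not called (adjusted p = 0.0724). It was also not called with labelled deletion replicate 1 or 2 left out (0.69 and 0.53, adjusted p = 0.242 and 0.348), or with no filter on low genes (adjusted p = 0.0541).

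At its start leu3 shares 87 nt with rpl2502, a ribosomal protein gene on the opposite strand. The levels of rpl2502 were 597 and 622 against 632 and 780 FPKM, a difference of -0.20 ± 0.14 (adjusted p = 0.353). Of the signal of its locus leu3 was given 68.8% and 70.4% in the labelled deletion libraries and 59.5% and 53.6% in wild type. The shared stretch is 3.83% of leu3.

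The Loz1 response element, the sequence known to be bound by Loz1, was searched on both strands before each annotated start in the later assembly ASM294v3. None of the 6 transcripts had it within 250 or 1000 bases of its start, against 0.302% and 1.22% of all genes. At zrt1 it was found 194 nt before the start and at loz1 394 nt before it. Before adh1 and adh4, which were searched as well, it was not found in either window. A shorter form, CGNAGATC or CGNCGATC, was present before leu3 and before none of the other 5, in windows of 250 and of 1000 bases. In windows of 250 bases 1.53% of genes had it, and in windows of 1000 bases 6.46%. The shorter form was also found before zrt1 and loz1 in both windows. Before adh4 it was found in the longer window only, 672 nt before the start, and before adh1 in neither. At leu3 there are matches on both strands that share the letters GATC, the first beginning 88 nt before the start at 2690612, which is not the start of the files. The stretch is shown with its matches in capitals beside the element at zrt1, read at chrII:2690682-2690711 (minus strand) and at chrII:3606974-3607003 (plus strand) in ASM294v3.
leu3 site: atgatctcgtaCGCAGATCTCCGatcgtta
zrt1 site: attttcaagCGTCGATCCTTaaaccttggt
The zrt1 stretch has the full element and the leu3 stretch its first 8 letters. In the coordinates of the files rpl2502 spans 2690601 to 2691722 on the opposite strand. The leu3 stretch lies within that span if both assemblies number these bases alike, which was not checked. A match in letters is a description of the sequence, and binding was not measured.

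The alcohol dehydrogenase gene adh8 lies on chromosome II at 293225 to 294725 (minus strand, 1 exon). For adh8 the FPKM was 71.4 and 71.3 in the labelled deletion pair, against 99.9 and 77.4 in the wild-type pair. The labelled deletion values were nearly alike and below both wild-type values, as was so for 21.6% of all genes tested. The difference was -0.30 ± 0.14 (SE, adjusted p = 0.211), with a 95% confidence interval from -0.67 to 0.08. It was -0.48 when wild-type replicate 2 was left out and -0.12 when wild-type replicate 1 was. Between 1721 and 2262 fragments lay behind each value, and no other transcript overlaps it.

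Formaldehyde dehydrogenase of the glutathione-dependent kind, which oxidizes the adduct of formaldehyde and glutathione, is encoded by fmd2. It lies on chromosome II at 172378 to 174315 (plus strand, 1 exon). For fmd2 the FPKM was 7.59 and 7.64 in the labelled deletion pair, against 6.70 and 8.93 in the wild-type pair. The groups overlapped and the difference was -0.02 ± 0.20 (SE, adjusted p = 0.947), with a 95% confidence interval from -0.54 to 0.49. The interval leaves out any error in dividing the signal with SPNCRNA.1320, which overlaps 82.6% of fmd2. It was the lowest of the 6 transcripts in all 4 libraries, at place 4664 and 4574 among protein-coding genes by mean level. Its mean coverage was 11.8 to 15.8 fragments per base, so its values rest on far fewer reads than those of fba1.

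The antisense transcript SPNCRNA.1320, as Cufflinks divided the signal between it and fmd2, showed the largest difference of the 6. Most of its bases are shared with fmd2, and which strand carried the difference was not tested. SPNCRNA.1320 lies at 172716 to 174355 on the minus strand of chromosome II, in 1 exon. For SPNCRNA.1320 the FPKM was 55.2 and 65.4 in the labelled deletion pair, against 1124 and 747 in the wild-type pair. Both wild-type values were more than 10 times both labelled deletion values. It fell by 3.91 ± 0.22 (SE, adjusted p = 0.00164), and the mean was 15.5 times as high in wild type. The call was kept with any 1 library left out, with a change from -4.20 to -3.61. Among 6315 genes it had place 13 from the lowest change, and among 1176 long non-coding RNA genes place 2.

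The start of SPNCRNA.1320 is where the largest difference was annotated, so the 250 bases before it are shown. They were read from ASM294v3 at chrII:174356-174605, minus strand, with a TATA-like match in capitals.

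SPNCRNA.1320 upstream: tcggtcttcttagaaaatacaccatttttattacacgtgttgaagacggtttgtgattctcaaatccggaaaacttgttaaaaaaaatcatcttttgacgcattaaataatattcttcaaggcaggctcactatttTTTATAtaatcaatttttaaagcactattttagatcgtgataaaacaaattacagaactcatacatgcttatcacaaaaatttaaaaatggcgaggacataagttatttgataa

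The match is TATAAA on the opposite strand, 114 nt before the start. TATAAA on either strand was found in windows of this length before 40.9% of 12605 annotated genes, so it is a common match.

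Levels of fmd2 and SPNCRNA.1320 are not separate measurements. In the files they share 1600 nt, which is 82.6% of fmd2 and 97.6% of SPNCRNA.1320. Outside the shared stretch fmd2 has 338 nt and SPNCRNA.1320 has 40 nt. Neither has an intron, so no splice junction marks a strand, and the strand setting is not given in the sources used here. Reads of the shared stretch then cannot be told apart, and the division between the transcripts is that of Cufflinks. The share of the joint signal given to fmd2 was 14.2% and 12.4% in the labelled deletion libraries and 0.715% and 1.43% in wild type.

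The annotation of fmd2 differs between releases. In the RefSeq annotation of the later assembly ASM294v3, fmd2 runs from 172627 to 174315, while SPNCRNA.1320 again runs from 172716 to 174355. In that annotation 89 nt of fmd2 lie outside SPNCRNA.1320, and the coding sequence of fmd2, 172991 to 174262, lies wholly inside it. All 1272 coding bases of fmd2 are thus covered by the antisense transcript. Which strand carried the signal that differed was not tested.

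**Figure D2:**
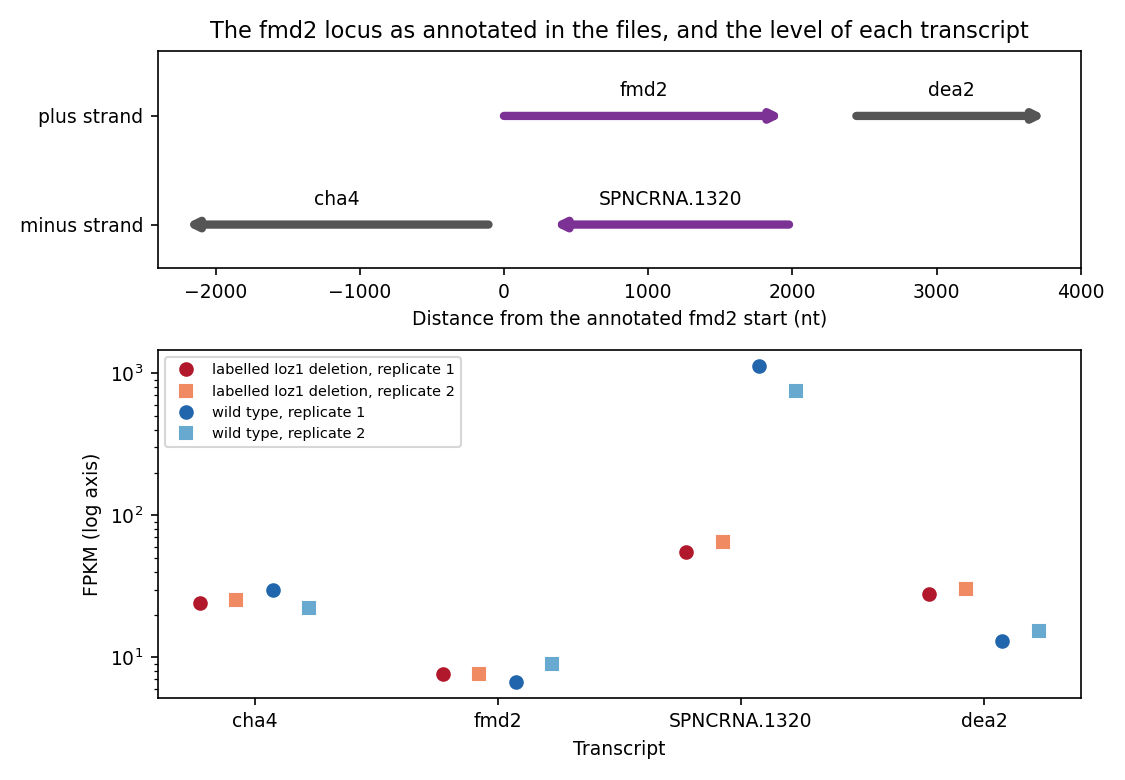
Above, transcripts at the fmd2 locus as arrows in the direction of transcription, by distance in nt from the annotated fmd2 start in the files. Below, FPKM of each on a log axis in the 4 libraries: SPNCRNA.1320 is lower in the labelled deletion libraries, dea2 is higher, and the values of fmd2 and cha4 overlap between groups. The division between fmd2 and SPNCRNA.1320 is that of Cufflinks.

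Summed over both strands, the locus gave far more signal in wild type. FPKM multiplied by transcript length in kilobases was 105 and 122 for the pair in the labelled deletion libraries and 1857 and 1242 in wild type. The wild-type mean was 13.6 times the other. The sum takes the reads of both transcripts together. SPNCRNA.1320 was listed at 7.28 and 8.56 times the FPKM of fmd2 in the labelled deletion pair, against 168 and 83.6 times in the wild-type pair. The log2 ratio of fmd2 to SPNCRNA.1320 differed by 3.89 between the groups. An exact two-sided permutation test gave p = 0.333, the smallest p that 2 libraries against 2 allow.

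**Figure D3:**
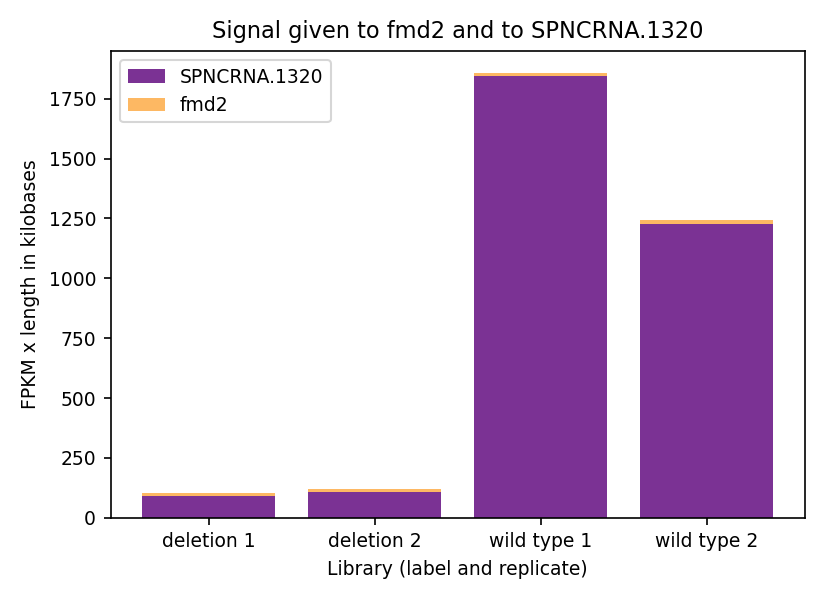
Bars show FPKM multiplied by transcript length in kilobases for fmd2 and SPNCRNA.1320, stacked, in the 4 libraries. The sums are 105 and 122 in the labelled deletion libraries and 1857 and 1242 in wild type, and the part given to fmd2 is between 13.0 and 17.3 in each.

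Of the neighbours of the pair dea2 was called and cha4 was not. The adenine deaminase gene dea2, the next one, starts 466 nt beyond SPNCRNA.1320 and is transcribed away from it. Its FPKM was 27.9 and 30.5 in the labelled deletion pair and 13.1 and 15.4 in the wild-type pair, which is a rise of 0.99 ± 0.14 (SE, adjusted p = 0.0173). That call was lost with labelled deletion replicate 1 or 2 left out (adjusted p = 0.202 and 0.258) and with no filter on low genes (adjusted p = 0.0591). On the other side cha4, whose 5′ end lies 106 nt from that of fmd2, was at 24.3 and 25.4 against 29.8 and 22.2 FPKM, a difference of -0.05 ± 0.17 (SE, adjusted p = 0.855).

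Ordered by mean FPKM, the wild-type levels were fba1, SPNCRNA.1320, leu3, adh8, pho8 and fmd2. There the values of adh8 and pho8 overlapped, and those of the other neighbours in the order did not. In the labelled deletion libraries the order was fba1, leu3, pho8, adh8, SPNCRNA.1320 and fmd2, and no neighbours in it overlapped. The places of pho8 and adh8 were thus exchanged, and SPNCRNA.1320 went from the second place to the fifth. No stretch of 50 bases of any of the 6 occurs elsewhere in the ASM294v3 sequence.

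A wider list of 30 genes of zinc enzymes and alcohol dehydrogenases was written from general knowledge, with earlier results of these data known. Its counts are thus a description. From the list 27 genes were matched and tested, the 5 enzymes above included. Of these 27 genes, 5 rose and 1 fell, and 21 did not pass the test. Without the members 22 were tested, of which 3 rose and 1 fell. Of all genes tested 11.9% were called as higher and 4.37% as lower. Shares of that size in a list this small are near those of all genes. The median of the list was 0.19 (log2), and that of all genes tested 0.13. Of the 18 tested zinc enzymes outside the alcohol dehydrogenases, 4 were called as higher and 0 as lower by the limma test, beside the same 11.9% and 4.37% of all genes. At an unadjusted limma p under 0.05, sod1 and nce103 were also lower among them, and met26 and ura2 were also higher. The share of all genes past that looser threshold was not taken. These counts depend on single libraries, as those over all genes do. With labelled deletion replicate 1 or 2 left out, 1 listed gene rose and 1 fell, and over all genes 80 or 73 rose and 40 fell. With wild-type replicate 1 left out 14 listed genes rose and 3 fell, beside 2115 and 880 of all genes. With wild-type replicate 2 left out 8 listed genes rose and 7 fell, beside 1593 and 793 of all genes.

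Besides pho8 and leu3, the rises among zinc enzymes were those of lys4 and his2, both of amino acid synthesis. The homocitrate synthase gene lys4, of the lysine pathway, had an FPKM of 2392 and 2418 in the labelled deletion pair, against 1413 and 1243 in the wild-type pair. It rose by 0.86 ± 0.15 (SE, adjusted p = 0.0256). The histidinol dehydrogenase gene his2, of the last step of histidine synthesis, was at 371 and 363 against 242 and 256 FPKM and rose by 0.56 ± 0.09 (adjusted p = 0.0241). Both calls were lost after median-ratio rescaling (adjusted p = 0.0608 and 0.071) and with either labelled deletion library left out, where the adjusted p was between 0.309 and 0.363. With no filter on low genes that of lys4 was lost as well (adjusted p = 0.0564).

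Of the 9 alcohol dehydrogenases and related oxidoreductases, adh4 rose, adh1 fell and 7 did not pass. The level of adh4 was 3320 and 3602 FPKM with the deletion label, against 23.3 and 32.8 FPKM in the wild-type pair (6.92 ± 0.18, SE, adjusted p = 0.000226). The level of adh1 was 30.6 and 67.6 against 386 and 642 FPKM (-3.42 ± 0.43, adjusted p = 0.0124), and other transcripts cover 93.2% of it, so its value is uncertain. Both calls were kept with any 1 library left out, and that of adh1 was lost with no filter on low genes (adjusted p = 0.0712). The paralogs of fmd2 were not called either. Levels of fmd1 were 114 and 114 against 91.2 and 77.8 FPKM (0.44 ± 0.11, adjusted p = 0.0601), and those of fmd3 were 18.6 and 16.6 against 13.2 and 11.0 FPKM (0.51 ± 0.16, adjusted p = 0.0957).

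Among zinc enzymes that were not called, the superoxide dismutase gene sod1, which uses copper and zinc, was at 2776 and 2786 against 4044 and 4759 FPKM. The difference was -0.66 ± 0.18 (SE, adjusted p = 0.0735). It was -0.26 with quantile normalization (adjusted p = 0.136) and -0.80 after median-ratio rescaling (adjusted p = 0.0988). The carbonic anhydrase gene nce103 was at 181 and 149 against 308 and 222 FPKM (-0.67 ± 0.19, adjusted p = 0.0772). It was called as lower after median-ratio rescaling (adjusted p = 0.0472) and with a replicate block (adjusted p = 0.0375). Met26, which makes methionine from homocysteine, had transcripts at 1091 and 1093 against 812 and 763 FPKM (0.47 ± 0.11, adjusted p = 0.0534), and were called as higher with quantile normalization (0.64, adjusted p = 0.0216). With wild-type replicate 1 or 2 left out the difference was -0.77 or -0.54 for sod1, -0.43 or -0.90 for nce103 and 0.52 or 0.43 for met26. The 21 genes not called lay between -0.67 and 0.51.

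**Figure D4:**
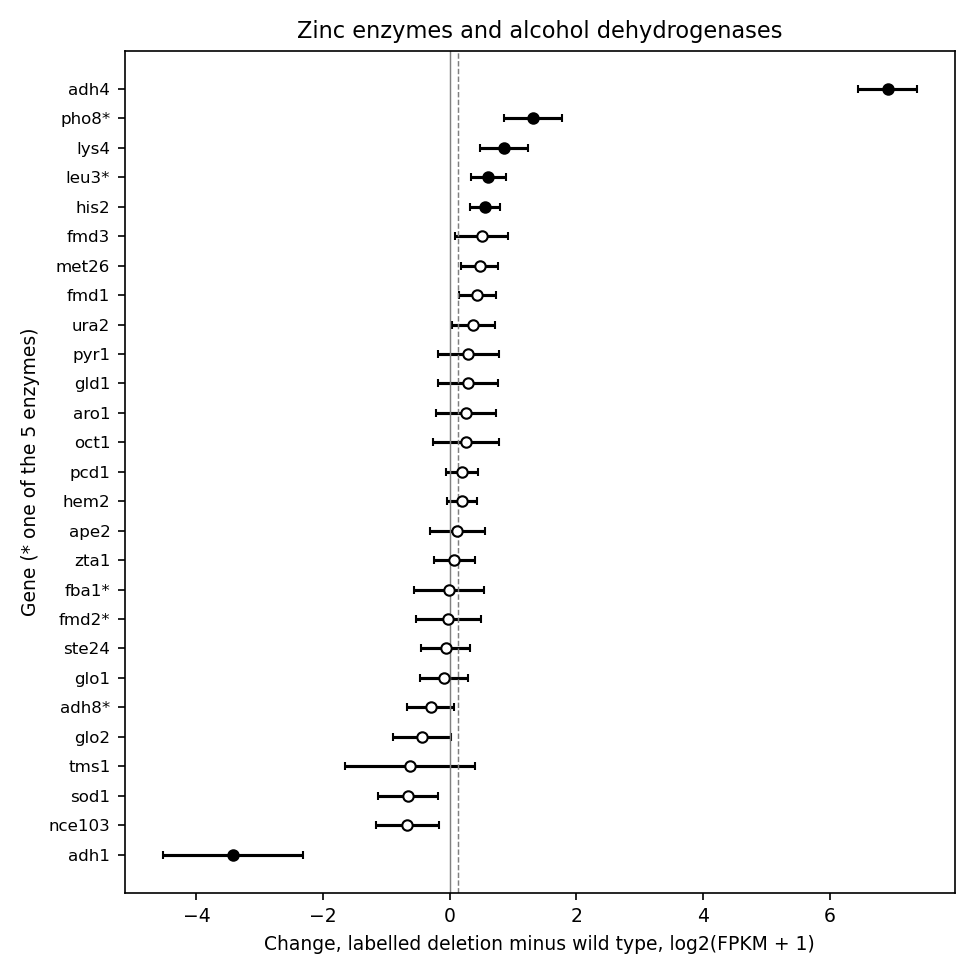
Change in log2(FPKM + 1), labelled deletion minus wild type, with 95% confidence intervals for the 27 listed genes that were tested, called genes as filled points. The dashed line is the median of all genes tested, 0.13, and all but the called genes lie between -0.67 and 0.51.

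Transcripts whose pattern over the 4 libraries was most like that of a called member were taken by the distance of their centred log2 values. For SPNCRNA.1320 they were SPBPB21E7.10, cum1 and SPAC11D3.01c, at distances of 0.31 to 0.42. All 3 fell, with differences of -4.04, -3.56 and -3.50. For pho8 they were are1, plb3 and SPBP8B7.32, at distances of 0.05 to 0.11, with rises of 1.30, 1.35 and 1.41. The calls of SPAC11D3.01c and of these 3 were lost with no filter on low genes (adjusted p from 0.0521 to 0.0809) and with either labelled deletion library left out (from 0.138 to 0.188). For leu3 they were SPNCRNA.1011, SPNCRNA.124 and new13, at distances of 0.05 to 0.06, with differences of 0.64, 0.66 and 0.64. SPNCRNA.124 was not called (adjusted p = 0.0898). The calls of SPNCRNA.1011 and new13 were lost with either labelled deletion library left out. That of SPNCRNA.1011 was also lost with no filter on low genes (adjusted p = 0.058). With 4 libraries, a small distance says little beyond a like difference between the groups.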

How the data were processed

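RNA of 4 libraries, 2 per group by the labels' titles, was quantified by the authors. Per the file headers and attribute names, Cufflinks gave each annotated transcript an FPKM value with bounds, its share of a locus and its coverage. A score that the authors deposited in another column was left aside. The tools used, per the submitters' processing notes, were Cufflinks, Cuffdiff, HISAT2 and SAMtools, and the build was ASM294v2. Not given in the sources used here are versions, strand setting and how reads with several matches were treated.

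FPKM was summed per gene and used as deposited. The test took the 6315 of 7092 genes whose mean was 1 FPKM or more and whose longest transcript had 200 nt or more. The model was limma's (version 3.58.1, R 4.3.3) on log2(FPKM + 1), with a trended empirical Bayes prior and Benjamini-Hochberg adjustment over those genes. Adjusted p-values throughout come from it, with n = 2 per group, and 0.05 was the threshold. The model was tested on simulated data with the same added spread in both groups. That test does not cover the unequal spread of the pairs seen here.

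Alternatives were pseudocounts of 0.1 and 5, no filter, median-ratio rescaling, quantile normalization, a replicate block and each library left out. Members, lists and tests were chosen with earlier results of these data known. The named genes are the 6 members, called genes of the wider list, transcripts overlapping or next to a member, and the 3 transcripts most alike to each called member. sod1, nce103, met26, ura2, fmd1 and fmd3 were named after their values were seen. The list holds pcd1, which RefSeq names a coenzyme A diphosphatase. It was kept as written, and 3 symbols without a match were left out.

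Depth was estimated from the width of the deposited bounds in loci with 1 transcript. It covers counting error only. Gene names, coding sequence and sequence are from the RefSeq annotation of ASM294v3, and 6746 gene identifiers matched it. Coordinates are those of the files unless ASM294v3 is named.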

Additional observations from a re-analysis of the deposited data

How the results depend on the processing

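The call of SPNCRNA.1320 was kept under every alternative run. With pseudocounts of 0.1 and 5 no call of a member changed. Quantile normalization turned the difference of fba1 to 0.33, and changed no call of a member. With no filter on low or short genes pho8 (1.31) and leu3 (0.61) lost their calls, which left 1 called member, and 2 listed genes rose and 0 fell. Fewer genes were called in all with that setting, 315 higher and 111 lower in place of 753 and 276. Median-ratio rescaling took leu3 to 0.47 and below the threshold, and 2 listed genes rose and 2 fell. It moved the median of all genes to 0.00 and the share of higher calls from 73.2% to 57.0%.

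With a library left out the changes ran from -0.21 to 0.18 for fba1, from 1.07 to 1.56 for pho8, from 0.53 to 0.69 for leu3, from -0.48 to -0.12 for adh8, from -0.21 to 0.16 for fmd2 and from -4.20 to -3.61 for SPNCRNA.1320. Called members then ranged from 1 to 4, listed genes that rose from 1 to 14, and those that fell from 1 to 7. The fmd2 to SPNCRNA.1320 log2 ratio differed by 3.41 to 4.36. A fit without one labelled deletion library takes its spread from the wild-type pair alone. A fit without one wild-type library takes its spread from the labelled deletion pair alone, whose median difference was 0.09 against 0.24. More genes were then called, over all genes as in the list. The lone sample of a group is assumed to vary like the others.

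With the replicate number as a block leu3 (0.61, adjusted p = 0.0502) was not called, and 3 listed genes rose and 2 fell. There his2 lost its call (adjusted p = 0.0528) and nce103 was called as lower. The block changed no other call of a member. The labels do not say whether same-numbered libraries were handled together. The deviations of same-numbered libraries had a correlation of -0.01 over genes, which does not settle that for single genes. The cause of these shifts was not tested. Of the 6 transcripts fmd2 was the lowest, and its 95% confidence interval of -0.54 to 0.49 (log2) leaves changes of that size undetected. That interval does not cover how Cufflinks divided the shared signal, so larger changes of fmd2 may also be missed.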

Other observations

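The gene tms1, a member of the wider list and the next gene below adh8, was at 217 FPKM in wild-type replicate 1. Wild-type replicate 2 had 91.7 FPKM, and the labelled deletion pair 89.1 and 93.6 FPKM. The value for wild-type replicate 1 thus stood apart from the other 3, and the difference between the groups was -0.62 ± 0.40 (SE, limma adjusted p = 0.32). Without wild-type replicate 2 that difference was -1.24, and that of adh8 was -0.48. Without wild-type replicate 1 the difference was -0.007 for tms1 and -0.12 for adh8. Both genes were highest in wild-type replicate 1.

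On the other side of adh8, 4 nt from it and on the opposite strand, SPNCRNA.1336 was at 22.7 and 19.8 FPKM with the deletion label, against 15.3 and 13.3 FPKM (0.54 ± 0.15, SE, limma adjusted p = 0.0721).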
